A study of Mus musculus with 2 samples.

Results

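The regions described here are last exons for which the authors annotated no proximal poly(A) site. They were chosen from the authors' table of transcript parts as coding RefSeq transcripts with no distal 3'UTR, with a last exon and earlier exons, and with at least 50 reads over these parts in each library. The read minimum is the measured value that entered the choice. Of 27567 transcripts in that table, 25537 were coding, 16928 of these had no distal 3'UTR, and 1852 of the latter lacked a last-exon part and 1544 earlier exons. Of the 13532 that were left, 8776 had the reads and are the members. Of the other 4756, 2825 fell under 50 reads in both libraries, 1217 only in the control and 714 only in the knockdown library. The 8776 members belong to 7065 genes. Isoforms share reads, so the coding transcript with the most reads stood for each gene. Of the members, 6908 stood for their gene. A further 1683 members were represented by another member and 185 by a transcript with a proximal site, and these 1868 enter only where every transcript is named. All values over members below are over the 6908 unless stated otherwise, and 6737 of these had a gene symbol.

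RNA was sequenced from mTEChi, the medullary thymic epithelial cells with high MHC class II, sorted as CD45-negative cells with low or intermediate Ly51. All cells came from 1 lentigenic B6 mouse that carried small hairpin RNAs against Clp1 and the green reporter ZsGreen behind a doxycycline-inducible promoter, together with the Tet-On 3G activator. From the age of 3 weeks the mouse ate food with 2 g of doxycycline per kg for 2 weeks. The Clp1 knockdown library was made from its GFP-positive cells and the control (Ctr) library from the GFP-negative cells of that thymus. The control thus shares the animal and the doxycycline, and it is neither a wild-type nor a non-targeting control. Whether the GFP-negative cells carry the transgene is not stated in the sources used here. With 1 library per group no difference below has a replicate check and no p-value was computed. The libraries held 28464803 (Ctr) and 37524730 (knockdown) reads.

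Most mammalian mRNAs end where the nascent transcript is cut and polyadenylated, downstream of a hexamer such as AATAAA that the cleavage and polyadenylation complex recognises. Genes with several poly(A) sites can make 3'UTRs of different lengths, whereas a last exon with a single site has no shorter annotated form. Clp1 is an RNA kinase that belongs to cleavage factor II of this machinery and also associates with the tRNA splicing endonuclease. In a last exon without an annotated proximal site, the coverage relative to the earlier exons is therefore the readout that the table of parts offers for the 3' end of the transcript.

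The 3' ends of the last exons with the strongest changes, of Clp1 and of a very abundant member are shown first, since the hexamer of the annotated end can be read in them. Each line holds the last 30 bases of the last exon, 5' to 3' on the strand of the gene, in the mm9 (NCBIM37) genome. Capitals mark AATAAA, or ATTAAA where AATAAA was lacking. The first 3 genes are among those with the highest changes that could be located, the next 4 are those with the lowest, followed by the target of the hairpins and an MHC class II gene.
Zfyve26 (chr12:80333334-80333363, minus): ccaagccacAATAAActgcctatcccacct
Armc9 (chr1:88174830-88174859, plus): tgcccagccaAATAAAatgttttaatttca
Upf2 (chr2:5977720-5977749, plus): ctgcAATAAAgtgttgtaatttggatttgg
Csmd1 (chr8:15892545-15892574, minus): aatcagagttctaATTAAAtatttaatttt
Fyb2 (chr4:104689439-104689468, plus): tgttAATAAAgtctacatatgctttcaact
Lars2 (chr9:123371753-123371782, plus): accattgaattAATAAAtgttgtgaaccat
Slc16a5 (chr11:115335683-115335712, plus): tggcctgtatgagatgccatcttccaattg
Clp1 (chr2:84563279-84563308, minus): attattttAATAAAtatgattgtgatagaa
H2-Ab1 (chr17:34406334-34406363, plus): AATAAAcgagactcagactctggttatttg
The window of Slc16a5 holds neither hexamer, and an ATTAAA lies upstream of it within the last 50 bases.

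Clp1 is itself a member. Its last exon (NM_133840, 1096 bp, chr2:84563279-84564374, minus strand) had 974 Ctr and 520 knockdown reads, and its earlier exons (606 bp) had 552 and 263. Both parts were lower in the GFP-positive cells. The level of the transcript, on the log2 scale after scaling by size factors, fell by 1.33. The last-exon ratio, which is the read density (reads per bp) of the last exon over that of the earlier exons, was 0.976 in Ctr and 1.09 with the knockdown. The log2 change of this ratio, knockdown over Ctr, was 0.16 with a 95% interval of -0.10 to 0.42. The interval is computed from the 4 read counts and, like all intervals and floors here, covers counting error only, since reads made by PCR and not tagged by molecule are not independent.

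The labelled cell type was checked against its markers. All 10 mTEC markers were detected in both libraries, and their summed scaled reads in the knockdown library were 115% of those in Ctr. Of the 10, 3 were below Ctr and 4 at least 2-fold higher. The log2 level changes of the abundant markers were 0.39 for Cd74, -0.21 for H2-Aa and -0.03 for H2-Ab1, so the sum leans on Cd74. Markers of other cells were lower: the sums were 3.35% of Ctr for 4 red cell genes, 4.50% for 4 endothelial genes, 8.66% for 4 fibroblast genes, 27.0% for 7 thymocyte genes, 37.0% for 4 B cell genes, 47.6% for 5 genes of dendritic cells and macrophages, and 65.1% for 4 cTEC genes. Single markers did not all follow these sums: 3 of 5 markers of dendritic cells and macrophages were below Ctr and 1 was at least 2-fold higher, and 6 of 7 thymocyte and 3 of 4 cTEC markers were below it. In the longer lists used further below, the unscaled reads of the B cell members went from 3584 to 5867 and those of dendritic cells and macrophages from 15607 to 21561. No marker was at 0 in either library. Fewer cells of a type and less RNA per cell cannot be told apart in bulk RNA. The part of these shifts in the ratios below was not tested.

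Last exons without a proximal site had more reads per bp than the exons before them, in both libraries. Reads had to lie within 1 exon, and the loss at the edges of the earlier exons, whose number the table does not give, was not corrected. The median last-exon ratio was 1.46 in Ctr (quartiles 1.02 and 1.99) and 1.52 in the knockdown library (1.10 and 2.05). The ratio was above 1 in 5247 members (76.0%) in Ctr and in 5506 (79.7%) in the knockdown library. In the 5226 genes whose transcript has an annotated proximal site, where the whole last exon was measured in the same way, the medians were lower, at 1.04 and 1.09. The 2 kinds differ in length, with a median last exon of 740 bp without and 1710.5 bp with a proximal site. Among last exons from 1000 to under 2500 bp the Ctr medians were 1.49 without and 1.07 with one.

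Between the libraries the ratio moved little as a whole. The median log2 change was 0.055 (quartiles -0.23 and 0.40), with 3853 members (55.8%) above 0, and the median of the genes with a proximal site was 0.057. A ratio was called changed when it differed by at least 2-fold and its interval excluded 0. By this rule 664 members rose (9.61%) and 462 fell (6.69%). Among all 12134 coding genes tested, 9.55% rose and 6.61% fell, and 16.2% moved either way, so the shares of the members are close to the background. In the genes with a proximal site 495 rose (9.47%) and 340 fell (6.51%).

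**Figure D1:**
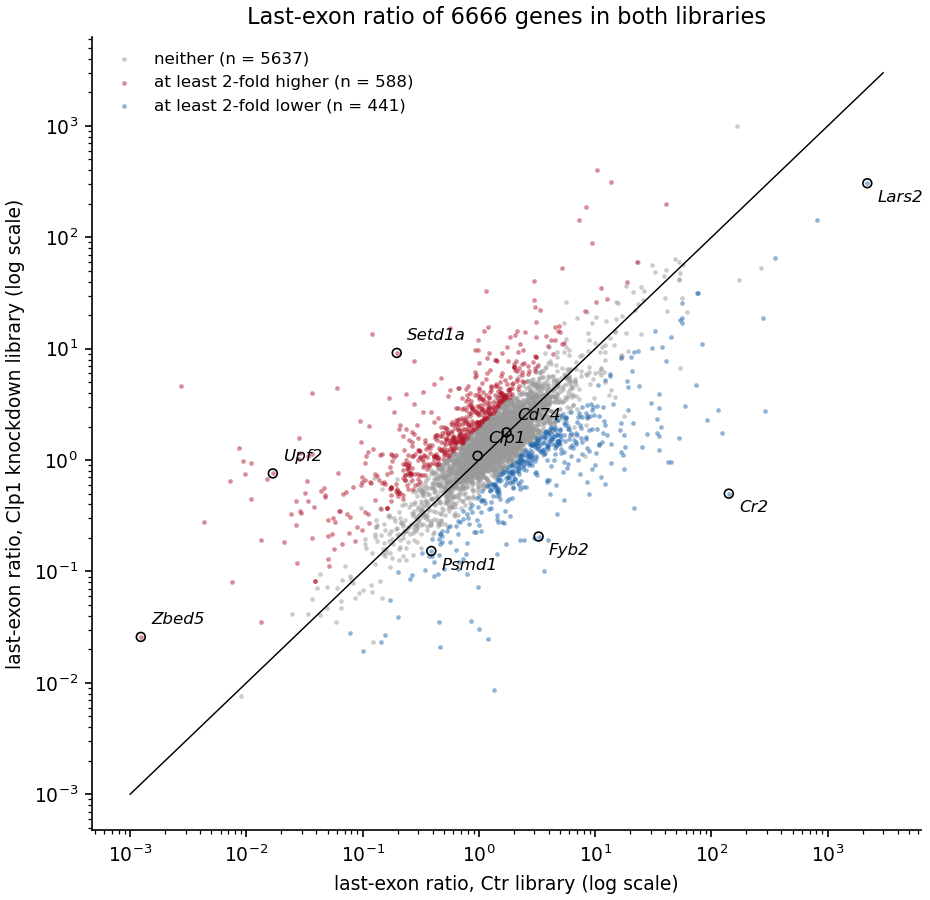
Last-exon ratio in the Ctr library against that in the Clp1 knockdown library, both on log scales, for the 6666 members with reads in both parts of both libraries; each point is a gene, red and blue points were at least 2-fold higher or lower with an interval that excluded 0, and the line marks equal ratios. Most points follow the line (Pearson's r = 0.687 on the log2 scale), with Setd1a far above it and Cr2 and Lars2 below it.

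Over the 6666 members with reads in every part, the log2 ratios of both libraries had a Pearson's r of 0.687 and a Spearman's rho of 0.672, across genes that are not independent replicates. Over the 1883 of them with at least 1000 reads in each library r was 0.924. The interval excluded 0 in 2819 members (40.8%), and in 1693 of these the change was below 2-fold. In 95 members the last exon had no read in Ctr and in 26 none in the knockdown library. Earlier exons had no read in 108 members in Ctr and in 86 with the knockdown. In 62 members they had none in both libraries, so that the ratio of these 62 carries no information. These 62, and 11 members without a last-exon read in both libraries, were kept among the 6908. Their change follows only the unscaled reads of the other part.

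When the 2 parts were read separately, both took part in the called changes. In the 664 members with a higher ratio the scaled last-exon reads had a median log2 change of 1.25 and the earlier-exon reads one of -0.55. In the 462 members with a lower ratio these medians were -0.91 and 0.86. The members with a higher ratio had a low ratio in Ctr, with a median of 0.579, and 1.85 in the knockdown library. The members with a lower ratio had 3.26 in Ctr and 1.07 with the knockdown. Both sets were chosen by the change itself, so these values only describe them.

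The spread of the change depended on the number of reads. In the 860 members with 50 to under 100 reads in the shallower library the quartiles were -0.84 and 1.09, and 22.2% rose and 17.3% fell. In the 1787 members with 200 to under 500 reads the shares were 10.2% and 7.16%. In the 1681 members with 1000 to under 5000 reads the quartiles narrowed to -0.11 and 0.19, with 2.08% and 1.37%. Of the 223 members with 5000 reads or more, 1 rose and 1 fell (0.448% each), and their median change was 0.015. The genes with a proximal site had the same order of classes, with 28.4% and 22.8% called in the class with fewest reads. Just inside the read minimum, 26 transcripts with 50 reads in the shallower library had a median change of 0.29, and just outside it 21 transcripts with 49 reads had one of 0.72.

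**Figure D2:**
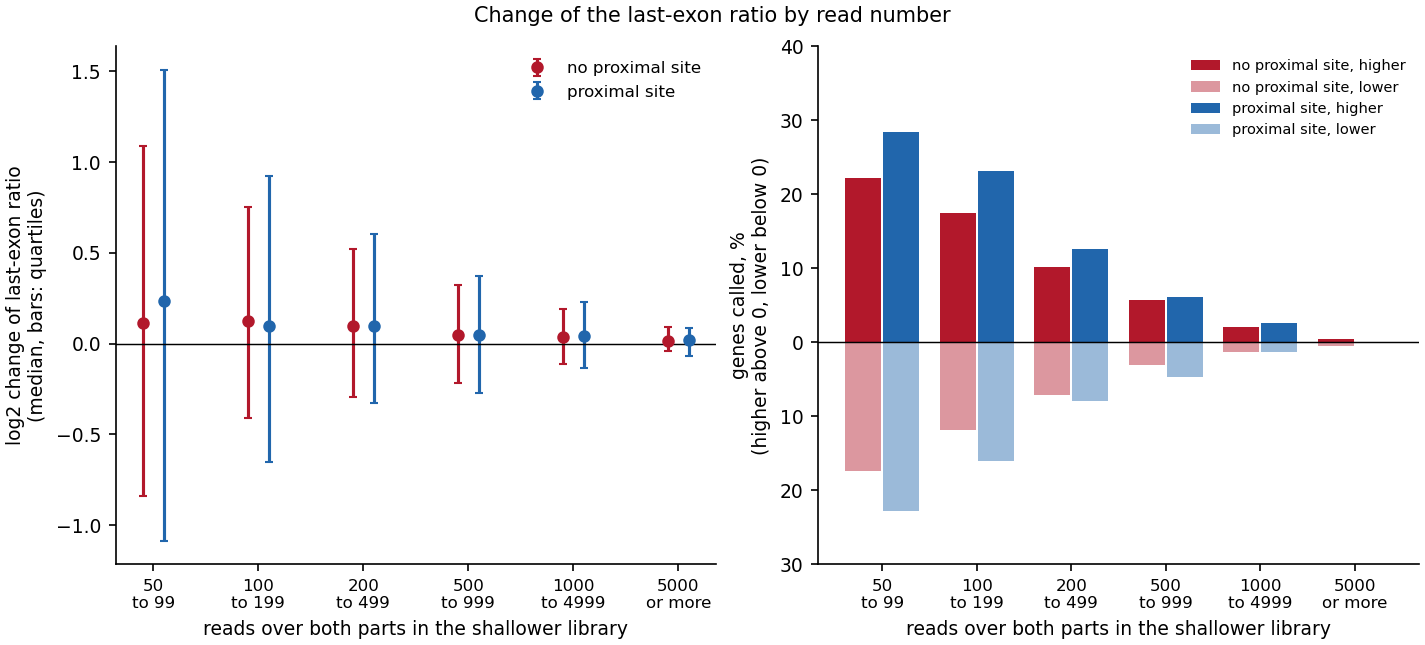
Change of the last-exon ratio by the number of reads over both parts in the shallower library, for members without a proximal site (red) and genes with one (blue); left, median log2 change with bars to the quartiles, and right, the percent of genes called higher (above 0) and lower (below 0). The quartiles close in on 0 and the called shares fall from 22.2% and 17.3% to 0.448% each with more reads.

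The length of the earlier exons went along with the change. Members whose earlier exons sum to less than 500 bp had a median change of 0.012 (n = 1469), and 3.74% rose and 3.68% fell. From 1000 to under 2000 bp the median was 0.064 (n = 2120), with 8.87% and 6.13%. In the 426 members with 4000 bp or more the median was 0.51 (quartiles -0.37 and 1.34), 30.8% rose and 12.9% fell, and the median ratio was 1.50 in Ctr and 2.00 with the knockdown. Genes with a proximal site and such long earlier exons had a median of 0.19 (n = 328), with 25.0% and 14.9% called. With at least 500 reads in each library the median of the long members was 0.38 (n = 175), with 24.0% higher and 7.43% lower, compared with 0.016 for 1519 members with earlier exons under 1000 bp. In the corresponding 174 long genes with a proximal site it was 0.17.

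**Figure D3:**
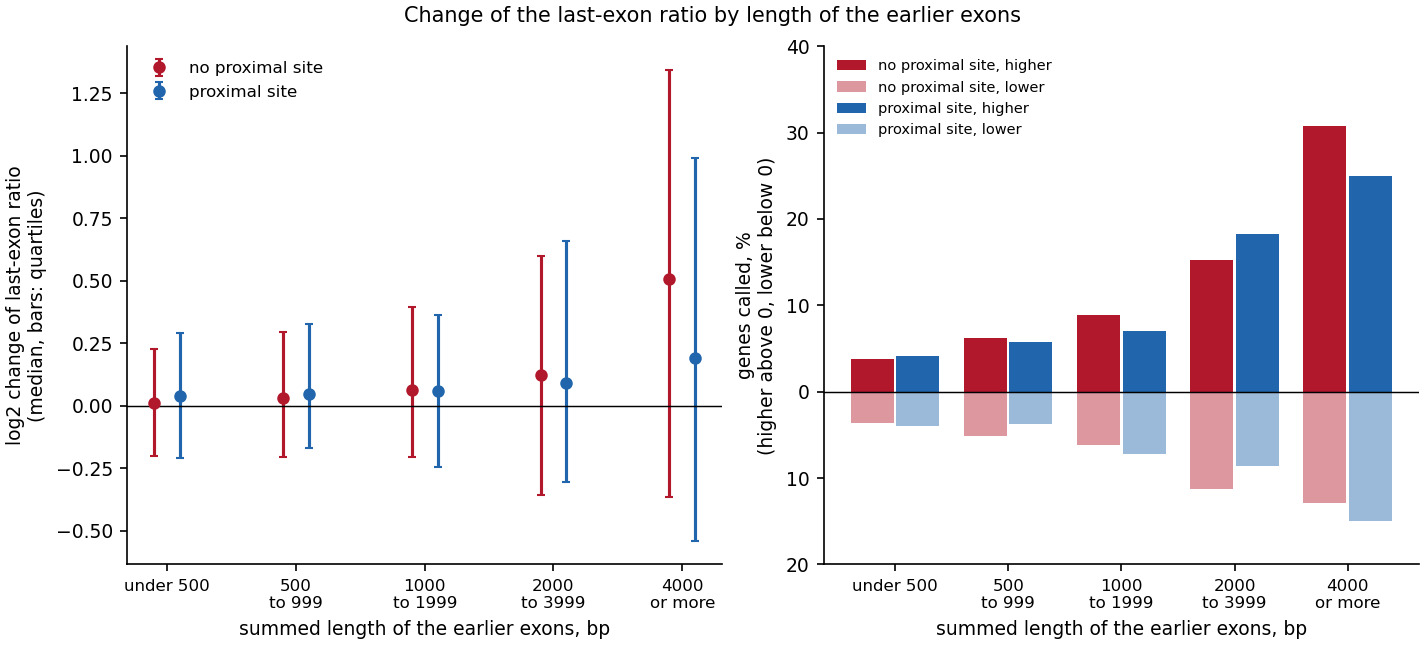
Change of the last-exon ratio by the summed length of the earlier exons in bp, for members without a proximal site (red) and genes with one (blue); left, median log2 change with bars to the quartiles, and right, the percent of genes called higher (above 0) and lower (below 0). Members with at least 4000 bp stand highest, with a median of 0.51 and 30.8% called higher.

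The strongest rises were ranked by the bound of the interval nearest to 0 among 5022 members with at least 200 reads in each library. Reads are given below with the last exon before the earlier exons, and all 8 highest genes, of which 7 are described, had 0 to 22 last-exon reads in Ctr and 72 to 379 in the knockdown library, and 4 of the 8 had earlier exons of at least 4000 bp. Setd1a, a histone H3 lysine methyltransferase gene, had 9 and 280 reads in Ctr and 135 and 90 with the knockdown. The log2 change of its ratio was 5.47, with an interval of 4.46 to 6.47, and the same pair of quantities stands in parentheses for the genes that follow. Here the last exon gained reads and the earlier exons lost them.

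Zfyve26, which encodes the endosomal protein spastizin, had 3 last-exon and 202 earlier-exon reads in Ctr and 198 and 182 with the knockdown (5.98, 4.42 to 7.53). Armc9, a gene of primary cilia, had 2 and 432 reads in Ctr and 72 and 239 with the knockdown (5.71, 3.88 to 7.54). Upf2, a factor of nonsense-mediated mRNA decay, had 3 and 531 reads in Ctr and 205 and 807 with the knockdown (5.27, 3.74 to 6.80). In these 3 genes the last exon described was nearly without reads in Ctr although the earlier exons were well covered. Another last exon of Armc9 (NM_027456) went from 19 to 15 reads, with a change of 0.58.

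Epg5, an autophagy gene, had 22 and 468 reads in Ctr and 267 and 267 with the knockdown (4.38, 3.72 to 5.04). Zbed5, a gene derived from a DNA transposon, had 18 and 3352 reads in Ctr and 379 and 3373 with the knockdown (4.35, 3.67 to 5.03). Ercc6l2, a helicase-like gene of DNA repair, had 0 last-exon reads in Ctr beside 327 in its earlier exons, and 161 and 498 in the knockdown library. Against a floor of 3 reads in the Ctr last exon its ratio was at least 35.2-fold higher. Another last exon of Ercc6l2 (NM_023507) went from 10 to 15 reads, with a change of -0.49.

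The strongest falls had another make-up: in 5 of the 8 the earlier exons had fewer than 20 reads in Ctr. Cr2, which encodes a complement receptor of B cells and follicular dendritic cells, had 291 last-exon and 2 earlier-exon reads in Ctr and 152 and 295 with the knockdown (-7.82, -9.64 to -6.00). Erc2, a gene of presynaptic active zones, had 199 and 11 reads in Ctr and 115 and 99 with the knockdown (-3.90, -4.84 to -2.96). Klf12, a zinc finger transcription factor gene, had 206 and 4 reads in Ctr and 329 and 102 with the knockdown (-3.84, -5.22 to -2.45). In these the earlier exons were nearly without reads in Ctr.

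Ikbip had 378 and 8 reads in Ctr and 286 and 87 with the knockdown (-3.77, -4.81 to -2.73), and Slc16a5, of the monocarboxylate transporter family, had 204 and 4 in Ctr and 171 and 49 with the knockdown (-3.71, -5.14 to -2.29). Csmd1, which encodes a large membrane protein of the nervous system, had 123 last-exon reads in Ctr and 0 with the knockdown, with 319 and 225 in its earlier exons, a ratio at least 28.9-fold lower against the floor of 3 reads. Fyb2, an adaptor protein gene, went from 112 and 111 reads to 22 and 345 (-3.95, -4.68 to -3.23). In Csmd1 and Fyb2 the earlier exons had more than 100 reads in Ctr, unlike in the genes above.

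Lars2, the mitochondrial leucyl-tRNA synthetase gene, stood apart by its numbers. Its last exon (NM_153168; 1166 bp, chr9:123370617-123371782) had 136434 reads in Ctr and 48402 with the knockdown, whereas its earlier exons had 135 and 343. The last exon held 99.9% and 99.3% of its reads, and the ratio was 2192 and 306 (log2 change -2.84, -3.12 to -2.55). Summed over all members, last exons took 51.1% of the reads in Ctr and 50.9% with the knockdown, and without Lars2 50.4% and 50.7%, so the order of the libraries in this sum depends on 1 gene. Where the last-exon reads of Lars2 come from was not tested, and its ratio and its place among the falls stand under that limit.

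Called members with many reads were looked up after the values were seen. The width of their intervals follows the part with fewer reads, not the total. Among 856 members with at least 2000 reads in each library, 16 were called. Of all coding genes tested, with at least 50 reads, 16.2% were called. From 1000 to under 5000 reads 2.61% of genes with a proximal site rose and 1.24% fell, compared with 2.08% and 1.37% of members. Besides Lars2, the member of the class with 5000 reads or more that was called was Fcgbp, which encodes a mucin-like protein that binds IgG. Its last exon of 169 bp had 886 and 2305 reads and its earlier exons, of 7742 bp, 28837 and 21840 (1.78, 1.67 to 1.89). Sspo, which encodes the brain protein SCO-spondin and has 15407 bp of earlier exons, had 116 and 288 last-exon and 2609 and 2406 earlier-exon reads (1.43, 1.10 to 1.75). Pmaip1, the gene of the pro-apoptotic protein Noxa, rose by 1.14 (0.91 to 1.38), from 2518 to 7853 last-exon and 277 to 391 earlier-exon reads. The MHC class I gene H2-Q1 had 38 and 134 last-exon reads beside 3424 and 4595 (1.38, 0.86 to 1.90), and can share reads with other class I genes.

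Of the 16, 9 were protocadherin gamma genes, which are spliced from separate first exons to the same constant exons and so share a single last exon. In all, 21 members, 20 of them with a symbol of this cluster and the other (NM_033580) with none, had the same last-exon reads, 2121 in Ctr and 2521 with the knockdown, on last exons that differ by at most 5 bp in the table. These are 1 measurement of the last exon set against earlier exons that differ in the first exon. The shared constant exons before the last one count for every member, so the earlier-exon reads are not separate measurements either. The ratio fell in 7 and rose in 2. Pcdhga11 had 62 earlier-exon reads in Ctr and 257 with the knockdown (-1.79, -2.20 to -1.39), and Pcdhgb6 had 132 and 525 (-1.74, -2.03 to -1.45). At the other end were Pcdhga8, with 120 and 55 (1.37, 0.90 to 1.83), and Pcdhga5, with 147 and 83 (1.07, 0.67 to 1.47). Pcdhgc3, with the most earlier-exon reads of the cluster, had 1114 and 1528 (-0.21, -0.35 to -0.07). Since the last-exon reads were the same for all 21, the ratios within this cluster differ through the earlier exons.

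**Figure D4:**
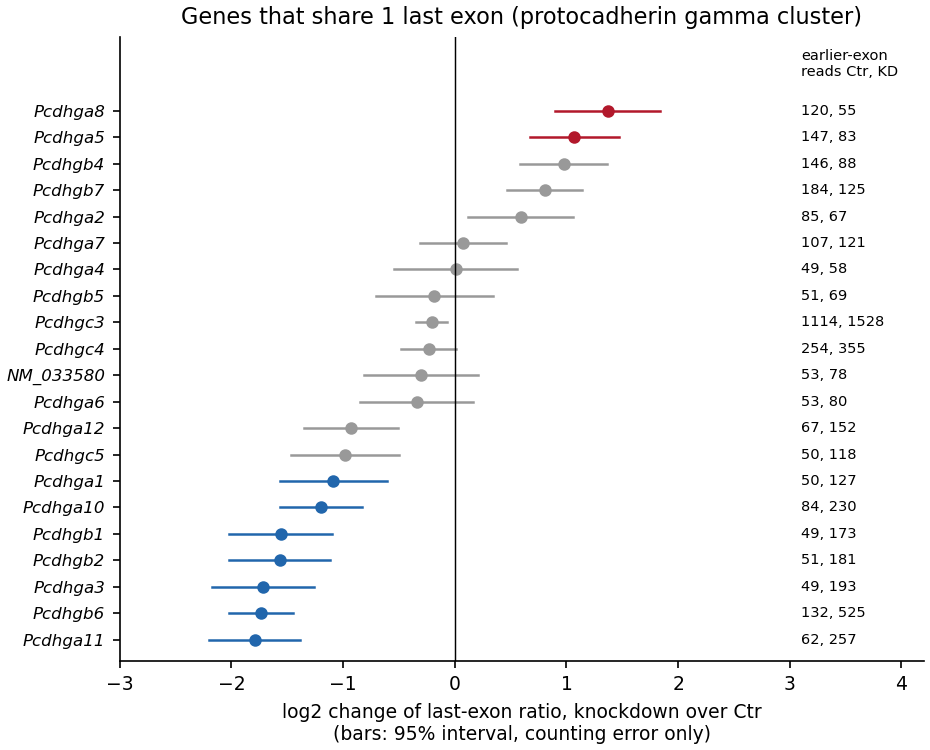
Log2 change of the last-exon ratio, knockdown over Ctr, with 95% intervals of counting error for the 21 members of the protocadherin gamma set that share 1 last exon (2121 reads in Ctr and 2521 with the knockdown); the numbers on the right are the earlier-exon reads, Ctr before knockdown, and red and blue mark called rises and falls. The changes run from -1.79 for Pcdhga11 to 1.37 for Pcdhga8.

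Shared last exons were counted over all members as well. There were 57 sets, 155 members in all, with the same last-exon reads (at least 10 in each library). Some sets join a named gene with transcripts that have no symbol, as for Madd, and these can be isoforms of that gene. With each such last exon counted once, 649 of 6810 members rose and 452 fell. In 305 genes the members held last exons that differ, and in 9 of these 1 rose and 1 fell. For Pard3, a cell polarity gene, the last exon of NM_033620 went from 62 to 483 reads and that of NM_001013581 from 30 to 0. For Acrbp, a gene of the sperm acrosome, the last exon of NM_016845 had 0 and 14 reads and that of NM_001127340 had 82 and 68, the latter with 0 and 39 earlier-exon reads.

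The most abundant members changed little. Cd74, the invariant chain of MHC class II, had 107307 last-exon and 102873 earlier-exon reads in Ctr and 185247 and 172854 with the knockdown, and its ratio went from 1.73 to 1.77 (0.04, 0.02 to 0.06). The class II genes H2-Ab1 and H2-Aa had changes of 0.01 and 0.03. The last exon of H2-Ab1 overlaps an exon of H2-Aa on the other strand in the annotation, and no source used here says whether counting took account of strand, so their reads cannot be told apart. Tmsb4x, which encodes the actin-binding thymosin beta, had -0.01, and Actb, with ratios of 0.347 and 0.305, had -0.19 (-0.21 to -0.16).

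Genes of large complexes were then compared as lists. Oxidative phosphorylation genes had 58 members, none of which was called, with changes from -0.34 (Ndufc1) to 0.53 (Uqcr11) and a median of -0.0024. Cox4i1, the most abundant of them, had 5947 last-exon and 6854 earlier-exon reads in Ctr and 5294 and 6105 with the knockdown. Of 59 ribosomal protein genes 1 rose and 1 fell around a median of 0.015. Rps12 had 21 and 63 last-exon reads beside 261 and 309 earlier-exon reads (1.32, 0.57 to 2.06), and Rpl29 had 551 and 869 beside 3 and 17. Among 26 proteasome genes the median was 0.0066 and Psmd1, a subunit of the regulatory particle, fell. It had 79 and 90 last-exon reads while its earlier exons went from 1488 to 4323 (-1.35, -1.79 to -0.91). No member was called among 20 translation factors, with a median of -2.6e-05, 12 splicing factors (0.09), 10 endoplasmic reticulum chaperones (-0.02), 13 cell cycle genes (-0.16) and 9 immediate early genes (-0.04). The median over all coding genes tested was 0.055. These counts stand beside 9.55% higher and 6.61% lower among all coding genes tested, and beside 2.08% and 1.37% among members with 1000 to under 5000 reads. The part of read number in the counts of the lists was not tested.

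Factors of 3' end processing, to which Clp1 belongs, had 9 members, with a median of 0.16. Of these 1 rose, beside 9.55% among all coding genes tested. Papolg, a nuclear poly(A) polymerase, rose: it had 99 last-exon and 204 earlier-exon reads in Ctr and 420 and 400 with the knockdown (1.11, 0.71 to 1.51). Cpsf3, the endonuclease of the complex, had ratios of 0.505 and 0.564 (0.16, -0.18 to 0.49), and Nudt21, a subunit of cleavage factor I, 2.21 and 1.88 (-0.23, -0.53 to 0.07).

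The lists of thymic epithelium genes and of antigen presentation genes held 15 members each, with no called change. This stands beside 9.55% higher and 6.61% lower among all coding genes tested. The part of list size and read number in such counts was not tested. Tnfrsf11a, which encodes the receptor RANK that drives mTEC maturation, had ratios of 0.614 and 0.933 (0.60, 0.49 to 0.72), the largest change of the epithelial list. Its last exon went from 2434 to 4962 reads and its earlier exons from 1754 to 2352. The costimulatory ligand gene Cd80 had the lowest (-0.32, -0.68 to 0.05). In the list of antigen presentation the class I gene H2-Q4 had 0.71 (0.56 to 0.87) and H2-Ob -0.28 (-0.47 to -0.10). That list does not hold H2-Q1, the class I gene called higher above (1.38, 0.86 to 1.90).

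**Figure D5:**
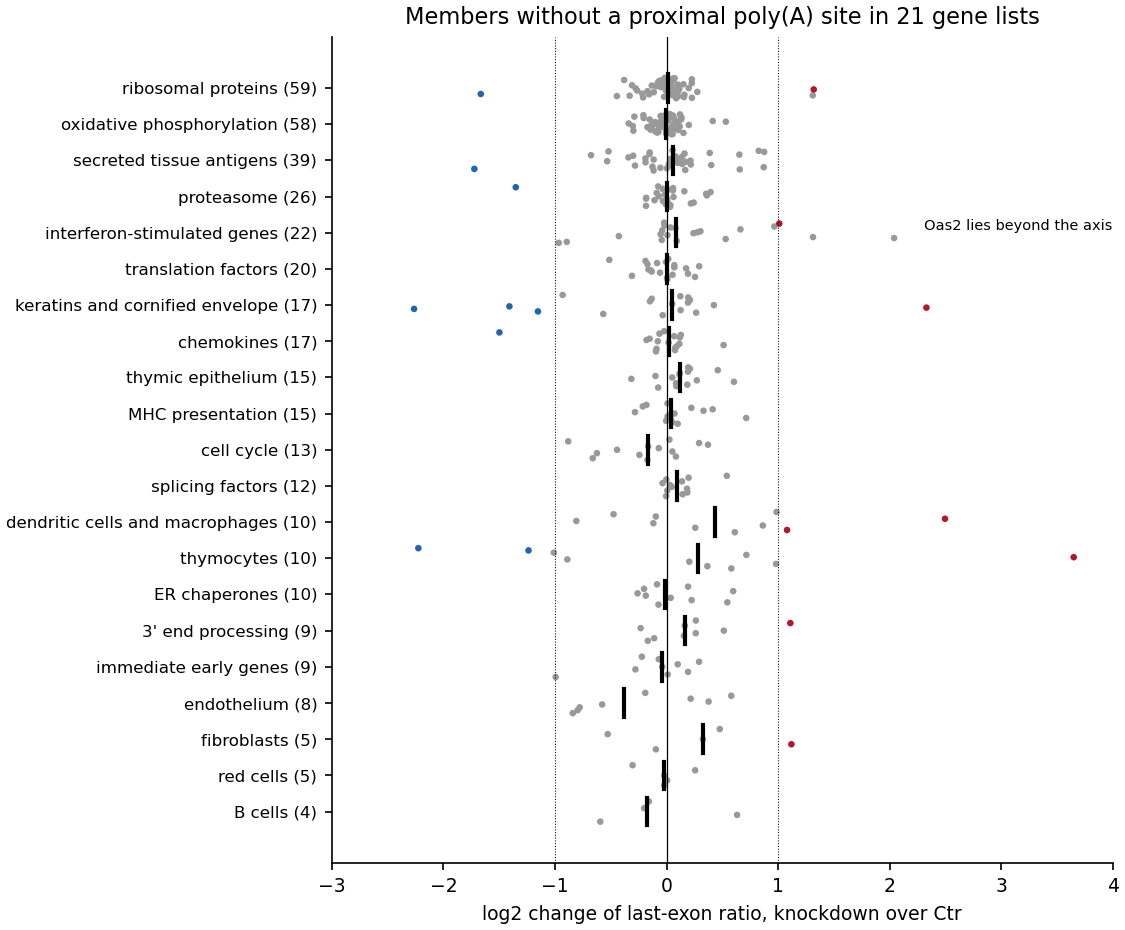
Log2 change of the last-exon ratio, knockdown over Ctr, for the members of 21 gene lists; each point is a gene, red and blue points were called higher or lower, the black bars are list medians, the dotted lines mark 2-fold and the number of members stands behind each list name. The oxidative phosphorylation genes lie between -0.34 and 0.53, and the thymocyte and keratin lists spread past 2-fold on both sides.

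The 17 members among keratins and genes of the cornified envelope, which differentiated mimetic mTEC express, ranged from -2.26 to 2.33. Of these 1 rose and 3 fell around a median of 0.05, beside 9.55% and 6.61% among all coding genes tested. Krt1 fell: it had 214 last-exon and 43 earlier-exon reads in Ctr and 449 and 437 with the knockdown (-2.26, -2.77 to -1.76). Krt4, a keratin of mucosal epithelia, rose while its level dropped by 4.41 on the log2 scale; it had 486 and 828 reads in Ctr and 60 and 20 with the knockdown (2.33, 1.59 to 3.07). Krt6a (-1.41, -1.89 to -0.93) and Krt16 (-1.15, -1.49 to -0.81), keratins of activated and hyperproliferative epidermis, also fell. The abundant Krt8, a keratin of simple epithelia, had 0.19 (0.15 to 0.23).

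Of 39 secreted antigens of peripheral tissues, 1 fell and none rose, beside 6.61% and 9.55% among all coding genes tested. Ambp, which encodes a plasma protein of the liver, had 24 and 103 reads in Ctr and 8 and 118 with the knockdown (-1.72, -2.91 to -0.53). The abundant antigen Reg3g, an antimicrobial lectin of the gut, had ratios of 1.60 and 1.63 (0.03, -0.02 to 0.09). Of 17 chemokine genes only Cxcl14 fell, with 298 and 43 reads in Ctr and 251 and 103 with the knockdown (-1.50, -2.06 to -0.93). Cxcl10, the most abundant, had -0.02 (-0.11 to 0.07) although its level rose by 1.31.

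Among 22 interferon-stimulated genes 2 rose, beside 9.55% among all coding genes tested. Oas2, an oligoadenylate synthetase gene, had 0 last-exon reads in Ctr and 158 with the knockdown, with 146 and 115 in its earlier exons. Against the floor of 3 reads its ratio was at least 66.9-fold higher. Gbp5, a guanylate-binding protein gene, went from a ratio of 0.538 to 1.08 (1.01, 0.79 to 1.23). The median of the list was 0.09, and Ifitm3, the most abundant, had 0.08 (0.04 to 0.13).

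Markers of other cell types also hold members, and their reads were few in the knockdown library where their levels were low. The 8 endothelial members, all at least 2-fold lower in level, had a median change of the ratio of -0.38, with none called. Pecam1 had 2251 and 3328 reads in Ctr and 120 and 305 with the knockdown (-0.78, -1.09 to -0.46). The 5 red cell members had a median level change of -4.97 and a median change of the ratio of -0.02, as in Hba-a2, with ratios of 1.27 and 1.25. The parts of Hba-a2 held 56388 Ctr and 2296 knockdown reads, more than the 35526 and 1478 of its whole transcript. Why these counts differ was not tested. Of 10 thymocyte members, Zap70 rose, with 32 and 52 reads in Ctr and 50 and 6 with the knockdown (3.65, 2.31 to 4.99), and Cd4 (-2.22, -2.80 to -1.64) and Cd2 (-1.24, -2.06 to -0.41) fell. Few reads underlie these: the earlier exons of Zap70 had 6 with the knockdown and those of Cd4 had 34 in Ctr. The log2 level changes of Zap70 and Cd4 were -0.96 and 0.14. Of 10 members of dendritic cells and macrophages Flt3, a cytokine receptor gene, rose (2.50, 1.43 to 3.56), as did Sirpa (1.08, 0.77 to 1.39). Of 5 fibroblast members Col1a1 rose (1.12, 0.25 to 1.98), and none of 4 B cell members was called. The called members stand beside 9.55% higher and 6.61% lower among all coding genes tested. The summed marker levels of these cell types are given above, and their part in these ratios was not tested.

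At the other end of the transcript, the density of the 5'UTR over that of the earlier exons was compared in the 5680 members with at least 50 reads over these parts in each library. Its median log2 change was -0.11, and -0.15 in 4580 genes with a proximal site. No 5'UTR read was required, and 5'UTRs shorter than a read can hold none, as in Cxcl10 (40 bp, 0 reads in both libraries). The value then follows only the earlier-exon reads, which are not scaled for library size. The part of this in the sign and in the difference between the kinds was not tested. In the 5226 genes with a proximal site the upstream part of the last exon had a median change of 0.052 and the part beyond the proximal site one of 0.072. The members without a proximal site, at 0.055, lay between these.

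The level of the transcripts differed between the kinds more than the ratio did. The median log2 level change was -0.09 in the members and 0.08 in the genes with a proximal site. Among all coding genes tested 12.3% were at least 2-fold higher in level and 13.6% lower. In the members 776 were higher (11.2%) and 1074 lower (15.5%), and in the genes with a proximal site 13.8% were higher and 11.1% lower. The read minimum in both libraries keeps out members that were nearly absent from either. Across 6865 members the change of the ratio had a Spearman's rho of 0.015 with the change in level and a Pearson's r of 0.04. Members with a level at least 2-fold lower had a median change of the ratio of 0.09 (n = 1074), those at least 2-fold higher 0.09 (n = 776) and the rest 0.05 (n = 5015).

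Sequence features were read in the 2944 members (42.6%) whose last exon could be located by gene symbol and exact length. Their median change was 0.07. AATAAA lay in the last 50 bases of 69.7%, ATTAAA alone in 13.5% and neither in 16.9%, compared with 58.1%, 16.5% and 25.4% of 2400 located last exons with a proximal site. The hexamers were searched on the strand of the gene. The median change was 0.07 for members with AATAAA, 0.06 for ATTAAA alone and 0.10 for neither. An AATAAA more than 100 bases before the end, with or without another at the end, was present in 630 members (21.4%) and in 66.5% of last exons with a proximal site, which are longer. Members with such a distant AATAAA had a median change of 0.08, with 16.5% higher and 10.8% lower, and members without one 0.07, with 8.56% and 5.70%. Their last exons had median lengths of 1888 and 597.5 bp. Within last exons from 1000 to under 2500 bp the medians were 0.13 (n = 285; 17.2% higher, 9.47% lower) and 0.09 (n = 586; 11.8% and 7.17%). The median GC content of these classes was 42.6% and 50.6%, and its part was not tested. With a proximal site, last exons of this length had 9.36% higher and 6.10% lower with a distant AATAAA, and 9.76% and 4.39% without. The GC content had a median of 48.8% in the members and 44.5% in the last exons with a proximal site. In members under 40% GC 14.9% rose and 10.3% fell, and in members of 55% or more 6.53% and 4.36%, with medians of 0.07 and 0.09. An exon of another gene on the opposite strand overlapped 266 located last exons, whose median change was 0.07, with 9.02% higher and 10.2% lower. The 2648 without any overlap also had a median of 0.07, with 10.4% higher and 6.53% lower. For 35 that overlapped an exon on the same strand the median was 0.22, with 3 higher and 0 lower.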

How the data were processed

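The libraries, GFP-negative (Ctr) and GFP-positive (Clp1 knockdown) mTEChi of 1 mouse, were made from low-input RNA by template-switching cDNA synthesis and transposase fragmentation and read single-end at 50 bp. The submitters' processing notes name the mm9 genome, Bowtie 1.0.0, bedtools and DESeq. The authors deposited counts of reads that lie wholly inside exons, without normalization, for whole transcripts and for transcript parts with their lengths in bp. Whether strand was used, and whether duplicates were removed from these libraries, is stated in none of the sources used here. The authors' differential expression table (a normalized signal per library, fold and p-values) was not used.

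A read must lie within 1 exon, so short exons are undercounted. The authors' last-exon part fuses the last coding exon with the 3'UTR. For transcripts with a proximal site, its upstream and distal parts were summed. To each part 0.5 reads were added for the log2 change of the ratio, whose 95% interval is that of a log odds ratio of the 4 counts. Levels were scaled with size factors (median of ratios: 0.877 and 1.14). Level intervals are exact (Clopper-Pearson). The floor is 3 reads. The 874 entries that repeat an identifier were kept as copies. Symbols came from a GRCm38.p6 table by RefSeq identifier (8605 of 8776 members matched). Coordinates and sequences came from NCBIM37 with GENCODE vM1, by symbol and exact last-exon length at a unique position.

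Members and lists were chosen with earlier results of these data known. Genes were named by rule: among members with at least 200 reads in each library the 8 highest and 8 lowest changes, the 5 with most reads, and in each of 21 lists with at least 3 members the most abundant, highest and lowest. Krt6a, Krt16, Cd2, Gbp5, Sirpa, the called members with at least 2000 reads, and the genes with shared or alternative last exons were named after their values were seen. Some genes that meet these rules are not reported here. The calls were also run on simulated reads that carry counting error only. These lack amplification noise, so they cannot show how many of the calls here are false. Python 3.11.15, numpy 2.4.6, pandas 2.3.3, scipy 1.17.1, matplotlib 3.10.9, R 4.3.3 and edgeR 4.0.16 (TMM factors as an alternative) were used.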

Additional observations from a re-analysis of the deposited data

How the results depend on the processing

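No paired analysis was possible because each group has 1 library. Of 63 recomputed values, 51 stayed within 1.5 times the count, or within the interval of the median, that is reported. No median log2 change took the other sign, whereas counts and density ratios have no sign to change. Where 1 transcript per gene was chosen among the members only, the median with a proximal site could not move. The counts of called ratios depended on the read minimum. With at least 200 reads in each library 294 members rose and 193 fell (5.85% and 3.84% of 5023), and with at least 1000, a minimum chosen after the data were seen, 36 and 24 (1.89% and 1.26% of 1904). At that minimum the median change was 0.032 in the members and 0.038 with a proximal site. With at least 200 reads 398 members were higher and 525 lower in level. The median last-exon ratio was 1.63 in Ctr and 1.70 in the knockdown library with 49 bp taken from the last-exon length, a correction that leaves the earlier exons as they are and so can only raise the ratio, and 1.42 and 1.49 over every transcript. Centring the change on the median of all genes tested gave 615 rises and 492 falls. The median level change over all genes tested was -0.01 by median of ratios, -0.01 by TMM and -0.03 by total reads. The number of reads limits the single ratios: calls at 50 to under 100 reads rest on few reads in 1 part, and without replicates the spread between animals or sorts is unknown.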
